A study of Mus musculus with 9 samples.

Results

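The genes described here are 10 genes by which macrophages are recognised and by which they bind and take up particles: Adgre1, Cd68, Mrc1, Marco, Msr1, Cd36, Mertk, Axl, Lyz2 and Gpnmb. They were picked by symbol, with earlier results of these data known, and all 10 had a row among the 23282 gene rows of each library. Their mRNA was measured in RAW264.7 cells, a mouse macrophage line of BALB/c origin used at passage 30, which forms osteoclast-like cells under RANKL, the cytokine that drives precursors to become osteoclasts. Cells were treated for 4 days in 3 groups with 3 libraries each. The negative control received RANKL alone at 50 ng/mL. The second group received RANKL with 10 µg/mL of surface proteins, which had been extracted from the bacterium Propionibacterium freudenreichii MJ2 with guanidine-HCl. The third received heat-killed MJ2 at 10000000 cells/mL, and the labels do not say library by library that RANKL was present there too. All groups came from this 1 cell line, so the 3 libraries of a group share their origin. Nothing says that they came from separate cultures, so the p-values below measure only the spread between these libraries, which may be technical.

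Tissue macrophages carry receptors of several families on their surface. Scavenger receptors bind modified lipoproteins, bacterial wall components and debris. The receptor kinases of the TAM family (Tyro3, Axl and Mertk) bind dying cells through the bridging proteins Gas6 and protein S, and lysosomal proteins and lysozyme then act on what was taken up. When RANKL acts on macrophage precursors, the cells fuse into osteoclasts, express enzymes that degrade bone and lose some of their macrophage surface proteins, F4/80 among them.

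Values are given as adjusted reads. The authors deposited 1 log2 value per gene and library, and 2 raised to that value, minus 1, put the lowest values close to whole reads. The libraries summed to 5930926 to 6503682 adjusted reads (median 6195319). Where no read was found, up to 3 reads per library remain possible, a floor for counting error only. Only the 3′ end of each mRNA was read, so a level in adjusted reads does not grow with transcript length. In 3 libraries (negative control replicate 2, heat-killed MJ2 replicate 1 and surface proteins replicate 3), between 2454 and 3195 rows held values above 0 but not above 0.5 of a read, which the other libraries did not have. Such values stayed as deposited in the fits. The text takes them as no read, also where they are printed.

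The promoters of 4 genes are shown because the data bear on them: the lysozyme genes Lyz2 and Lyz1 moved together, Cd68 was read at a high level in every library, and Mrc1 was close to the floor in every library. They run from 250 bases before the start site, on the strand of the gene, in the RefSeq annotation of GRCm38.p6. Bases that GENCODE M21 already places inside the gene were left out, which took 49 bases from Lyz2 and 22 from Mrc1. In the lysozyme promoters, capitals mark letters that both genes share in an unbroken run, and the last letter printed for Lyz2 is the first of the longer run.
Lyz2, chr10:117282322-117282522, minus strand: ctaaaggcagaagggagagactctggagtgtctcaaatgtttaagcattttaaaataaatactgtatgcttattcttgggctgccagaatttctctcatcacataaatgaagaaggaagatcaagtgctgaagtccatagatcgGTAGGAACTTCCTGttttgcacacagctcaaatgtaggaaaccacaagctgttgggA
Lyz1, chr10:117292869-117293118, minus strand: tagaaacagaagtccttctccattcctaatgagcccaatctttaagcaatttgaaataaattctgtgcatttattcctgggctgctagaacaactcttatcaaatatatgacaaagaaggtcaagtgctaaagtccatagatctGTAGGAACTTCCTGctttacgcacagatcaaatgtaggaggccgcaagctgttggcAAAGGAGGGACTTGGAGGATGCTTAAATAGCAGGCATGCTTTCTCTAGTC
Cd68, chr11:69666171-69666420, minus strand: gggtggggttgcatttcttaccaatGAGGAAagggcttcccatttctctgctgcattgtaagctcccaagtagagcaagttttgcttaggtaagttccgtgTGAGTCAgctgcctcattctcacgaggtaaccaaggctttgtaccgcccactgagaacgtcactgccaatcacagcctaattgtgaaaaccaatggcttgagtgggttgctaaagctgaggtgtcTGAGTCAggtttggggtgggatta
Mrc1, chr2:14229164-14229391, plus strand: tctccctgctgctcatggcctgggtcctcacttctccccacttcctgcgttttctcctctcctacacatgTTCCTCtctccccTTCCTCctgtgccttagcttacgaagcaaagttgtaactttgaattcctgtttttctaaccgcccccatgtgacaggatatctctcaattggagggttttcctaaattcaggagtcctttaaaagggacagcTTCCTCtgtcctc

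The lysozyme promoters were identical over the last 50 bases before the start site and over 14 bases from -106 to -93, and 79.4% of their aligned bases matched (200 of 252 positions). In Cd68 and Mrc1 the capitals mark letters found on either strand. These are GAGGAA, the core of sites bound by PU.1, the factor that sets macrophage identity, and TGANTCA, the site of AP-1, which RANKL signalling activates and which reads the same on both strands. Cd68 held the PU.1 core at -225 and AP-1 letters at -149 and -24. Mrc1 held the PU.1 core on the other strand (as TTCCTC) at -180, -167 and -35. Of all 32851 promoters of the same 250 bases, 23.3% held the PU.1 core and 6.75% the AP-1 letters. The table held promoters for 8 of the 10 genes, all but Adgre1 and Msr1. Marco and Axl held 1 PU.1 core each, and Lyz2, Cd36, Gpnmb and Mertk held neither motif. CATGTG, the core of sites bound by MITF and TFE factors, stood at 2 places in Mrc1 and in 12.3% of all promoters, and the antioxidant element TGACNNNGC stood in none of the 8 and in 10.2% of all. A loose NF-κB pattern, GGG and CC with any 5 letters between, was found in Marco, Mrc1, Mertk, Cd36 and Axl and in 45.8% of all promoters. A match is a description of letters, and their absence says nothing about the factor.

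The 10 genes fell into 3 classes by level. Gpnmb, Cd68, Lyz2, Msr1, Cd36 and Adgre1 reached at least 10 adjusted reads in all 9 libraries and were tested. Mrc1 and Axl never reached 10, and Marco and Mertk were listed at 0 in all 9 libraries, so these 4 were not tested. The cells labelled macrophage therefore carried Cd68, Lyz2 and Msr1, as well as Csf1r, the receptor for the growth factor M-CSF (2657 to 9877 adjusted reads), while several receptors typical of tissue macrophages (Mrc1, Marco, Mertk, and Cd163 and Vsig4 of the lists below) were at or near 0. None of the 10 genes overlapped another gene over the last 500 bases in GENCODE M21, and only Lyz2 shared any stretch of 75 bases of its 3′ end with another gene.

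**Figure D1:**
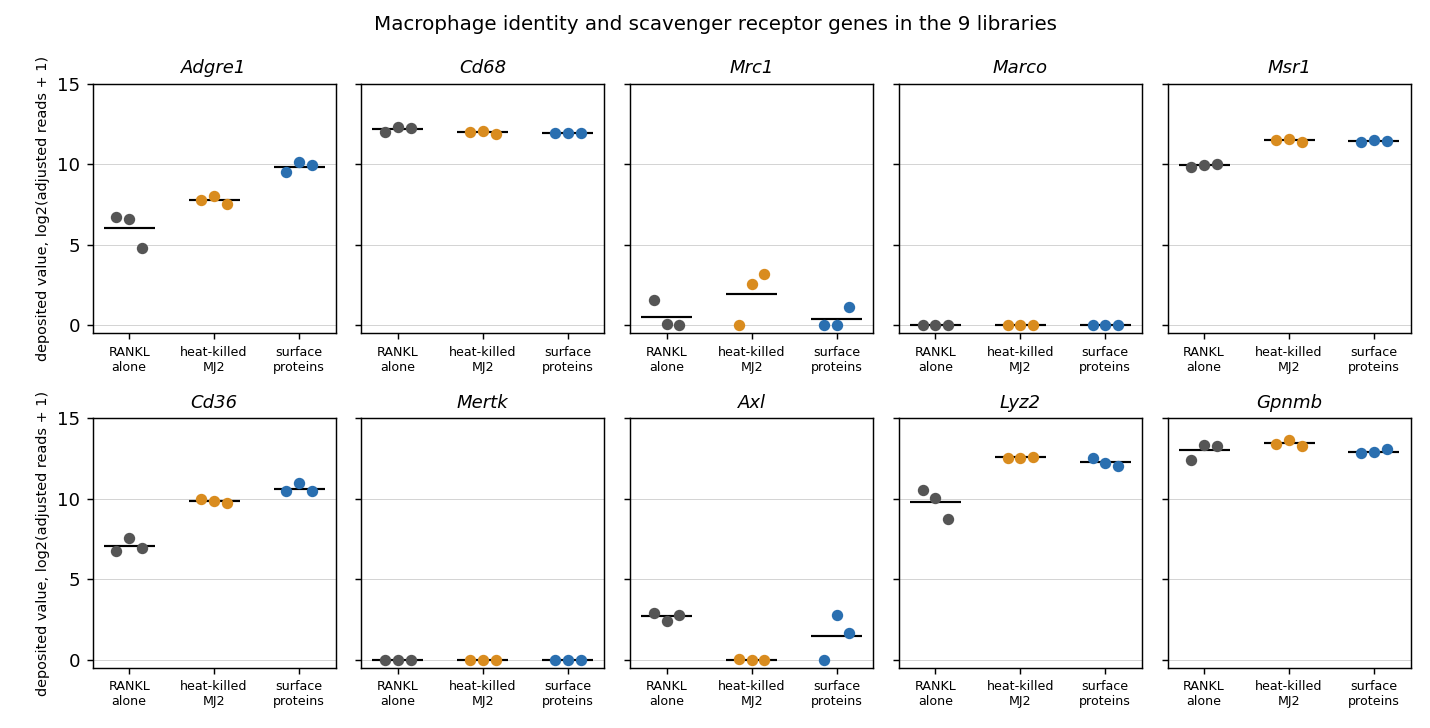
Deposited log2 value of the 10 genes (vertical axis, log2 of adjusted reads plus 1) in each library with RANKL alone, heat-killed MJ2 or surface proteins; each point is 1 library and each bar the mean of 3. Adgre1, Msr1, Cd36 and Lyz2 lay higher in all 6 treated libraries than in the 3 with RANKL alone, Cd68 and Gpnmb stayed high throughout, and Marco and Mertk were at 0.

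Surface proteins were compared with RANKL alone to see what they changed in cells under osteoclast differentiation. The macrophage marker Adgre1 was 14.0-fold and the scavenger receptor Cd36 11.8-fold higher with surface proteins. The size of the Adgre1 change depended on control replicate 3, without which its log2 fold change of 3.81 became 3.18. Lyz2 and Msr1 were also higher, while Cd68 and Gpnmb did not pass the test. In the tests below, limma compared the deposited log2 values, p-values received a Benjamini-Hochberg adjustment across all genes tested, and a gene was called if it changed at least 2-fold and its adjusted p lay under 0.05. By that rule 4 of the 6 tested genes were called, all higher, where 17.5% of the 10874 genes tested were called (10.2% higher and 7.32% lower). The median log2 fold change of the 6 genes was 2.001, and that of all genes tested was -0.01. For 5 of the 6, the 3 libraries with surface proteins all lay above or all below the 3 with RANKL alone, which held for 48.4% of all genes tested.

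Adgre1 (chr17:57358691-57483527, plus strand, protein-coding) encodes F4/80, the adhesion receptor most used to mark mature mouse macrophages. It was read 106, 93.9 and 26.7 times with RANKL alone, 214, 255 and 186 times with heat-killed MJ2, and 712, 1113 and 966 times with surface proteins. The 3 groups did not overlap, and replicate 3 of the negative control was the lowest library of all. With surface proteins the log2 fold change over RANKL alone was 3.81 (standard error [SE] 0.53, 95% confidence interval 2.52 to 5.09, adjusted p = 0.0046 from limma), or 14.0-fold. Without replicate 3 of the negative control it was 3.18, the only library whose removal moved the fold by more than 1.5 times, and the gene was still called.

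That library also had the lowest Lyz2 and Lyz1 of all 9, and the highest sum over 13 osteoclast markers. These markers summed to 23727, 27688 and 37260.0 adjusted reads with RANKL alone, to 16770 to 18651 with heat-killed MJ2 and to 7590.3 to 10597 with surface proteins. The order of the groups was thus the reverse of that for Adgre1, and the part of the osteoclast genes in the result was not tested. Of these markers 12 were tested, and 8 were called lower with surface proteins, beside 7.32% of all genes. Without the 1 that passed the filter only through the control libraries, 7 of 11 were. With heat-killed MJ2 3 of 12 were called lower, beside 0.897% of all genes. None was called higher under either treatment. In bulk RNA, fewer cells of a type and less RNA per cell cannot be told apart.

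Cd36 (chr5:17781690-17888801, minus strand, protein-coding) encodes the class B scavenger receptor for oxidised lipoproteins and long-chain fatty acids. Its adjusted reads were 107, 185 and 122 with RANKL alone, 1027, 949.8 and 838 with heat-killed MJ2, and 1406, 1987 and 1432 with surface proteins. No group overlapped another. The log2 fold change with surface proteins was 3.56 (SE 0.26, 95% confidence interval 2.93 to 4.19, adjusted p = 6.4e-04 from limma), or 11.8-fold. Leaving out each library in turn gave 3.39 to 3.79.

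Msr1 (chr8:39581685-39642673, minus strand, protein-coding) encodes the class A scavenger receptor SR-A, which binds acetylated lipoprotein and bacterial wall components. It had 913, 979.9 and 1023 adjusted reads with RANKL alone, 2857, 3056 and 2659 with heat-killed MJ2, and 2666, 2922 and 2801 with surface proteins. Both treated groups lay well above the control and overlapped each other. With surface proteins the log2 fold change was 1.52 (SE 0.13, 95% confidence interval 1.21 to 1.84, adjusted p = 0.0010 from limma), or 2.88-fold. Its libraries were close within each group, with a coefficient of variation of 4.57% to 6.96%.

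Lyz2 (chr10:117277331-117282321, minus strand, protein-coding) encodes lysozyme M, the secreted enzyme that cuts bacterial cell walls and is the usual marker of myeloid cells. Adjusted reads were 1518, 1064 and 420.1 with RANKL alone, 5950.3, 5988 and 6303 with heat-killed MJ2, and 5913, 4796 and 4149 with surface proteins. The control varied most, with a coefficient of variation of 55.1% against 18.0% with surface proteins and 3.18% with heat-killed MJ2. The log2 fold change with surface proteins was 2.48 (SE 0.47, 95% confidence interval 1.34 to 3.62, adjusted p = 0.012 from limma), or 5.57-fold. How the authors counted reads that match both Lyz2 and its neighbour Lyz1 is not given in the sources used here, so the level of either gene alone is uncertain.

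Cd68 (chr11:69664213-69666153, minus strand, protein-coding), a heavily glycosylated protein of the lysosomal membrane, had the narrowest span of the 3 group means among the 6 tested genes. Its adjusted reads were 4098, 4955 and 4935 with RANKL alone, 4121, 4210.2 and 3765 with heat-killed MJ2, and 3972, 3920.0 and 3882 with surface proteins, where the coefficient of variation was 1.15%. The surface protein libraries were all a little below those of the control. The log2 fold change was -0.24 (SE 0.14, 95% confidence interval -0.59 to 0.10, adjusted p = 0.24 from limma) and was not called.

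Gpnmb (chr6:49036546-49070929, plus strand, protein-coding) encodes osteoactivin, a transmembrane glycoprotein of macrophages and osteoclasts. It was the most abundant of the 10 genes, at 5502, 10247 and 9959 adjusted reads with RANKL alone, 10959, 13169 and 9966 with heat-killed MJ2, and 7377, 7600.1 and 8634 with surface proteins. Control replicate 1 was the lowest of all 9 libraries and the other control libraries lay above those with surface proteins. The log2 fold change with surface proteins was -0.07 (SE 0.27, 95% confidence interval -0.72 to 0.58, adjusted p = 0.86 from limma). Its sign rested on 1 library at a time: it was 0.085 without replicate 2 of the negative control and 0.0645 without replicate 3.

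**Figure D2:**
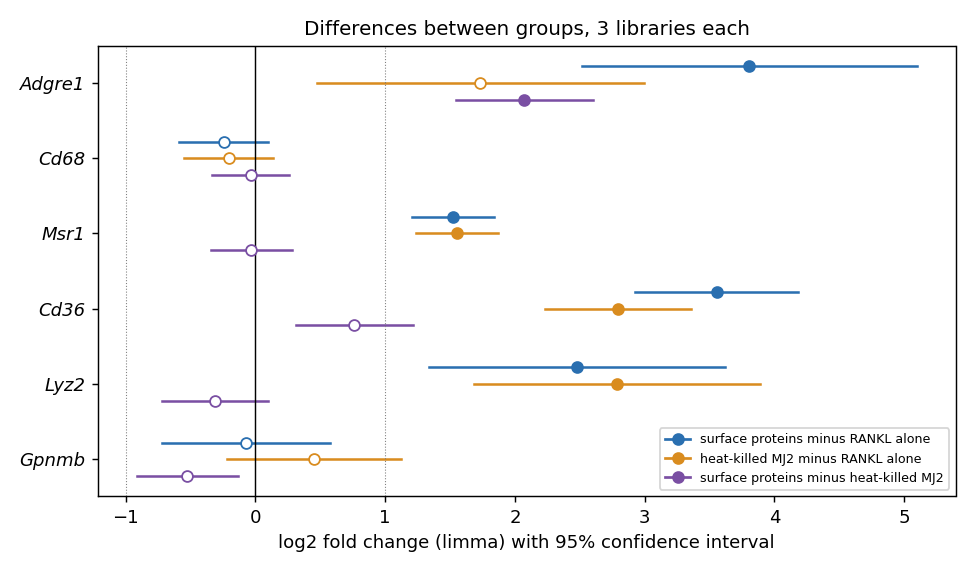
Log2 fold change of the 6 tested genes (horizontal axis) with its 95% confidence interval, for each pair of groups with 3 libraries each; filled points were called, open points were not, and dotted lines mark a 2-fold change. Adgre1 was called between surface proteins and both other groups, Msr1, Cd36 and Lyz2 were called against RANKL alone under either treatment, and no interval of Cd68 reached the 2-fold lines.

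The genes at the floor did not reach the 10 reads required for the test. Mrc1 (chr2:14229392-14332057, plus strand), the mannose receptor CD206, had 1.87 adjusted reads in 1 library with RANKL alone and 1.13 in 1 library with surface proteins. With heat-killed MJ2 it had 4.88 and 7.90 adjusted reads in replicates 2 and 3 and none in replicate 1. Marco (chr1:120474538-120505024, minus strand), a class A scavenger receptor for bacteria, and Mertk (chr2:128698956-128802894, plus strand), the TAM receptor of resting tissue macrophages, had no read in any library, which at this depth allows up to 3 reads in each. Axl (chr7:25757273-25788705, minus strand), the TAM receptor that interferon and toll-like receptor signals raise, had 6.65, 4.28 and 5.95 adjusted reads with RANKL alone and 0, 5.80 and 2.22 with surface proteins. In the 3 libraries with heat-killed MJ2 Axl was at or next to 0, below all 3 of the control (exact two-sided permutation p = 0.1, the smallest that 3 against 3 allows, and 0.21 after adjustment over 30 such tests). With a filter of a mean of at least 1 read Axl entered the heat-killed MJ2 comparison through the control libraries alone. The limma value there (log2 fold change -2.71, adjusted p = 0.0030) sets a few control reads against libraries at or near 0 and depends on the 1 read added before the log, so it is not counted as a call. The third TAM gene, Tyro3, did not exceed 8.77 adjusted reads. All 3 TAM receptors were thus within a few reads of the floor.

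Heat-killed MJ2 was compared with RANKL alone to see whether whole dead bacteria changed the same kind of genes. Cd36, Lyz2 and Msr1 were called, all higher, and Adgre1, Cd68 and Gpnmb did not pass the test. These 3 of 6 stand beside 4.26% of the 10814 genes tested that were called in this comparison (3.37% higher and 0.897% lower). The median log2 fold change of the 6 genes was 1.64, and that of all genes tested was -0.0042. The groups did not overlap for 4 of the 6, against 30.2% of all genes tested. Both comparisons use the same 3 libraries with RANKL alone, so they are not independent of each other.

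Cd36 had a log2 fold change of 2.79 (SE 0.23, 95% confidence interval 2.23 to 3.36, adjusted p = 0.0025 from limma), or 6.93-fold. For Msr1 it was 1.55 (SE 0.13, 95% confidence interval 1.24 to 1.87, adjusted p = 0.0026 from limma), or 2.94-fold, close to its value with surface proteins. Both were called under every alternative run. Lyz2 had a log2 fold change of 2.79 (SE 0.46, 95% confidence interval 1.69 to 3.89, adjusted p = 0.025 from limma), or 6.91-fold. All 3 of its treated libraries lay more than 3 times above the highest control library, but its call was the least steady of the 3. It was lost without heat-killed MJ2 replicate 1 (log2 fold change 2.80, adjusted p = 0.093 from limma), replicate 2 (2.80, 0.083) or replicate 3 (2.76, 0.090) and without control replicate 2 (2.93, 0.057).

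Adgre1 with heat-killed MJ2 lay above the control in every library and had a log2 fold change of 1.73 (SE 0.52, 95% confidence interval 0.47 to 2.99, adjusted p = 0.11 from limma), which did not pass the test. The interval does not include 0 and is wide, so the missed threshold does not show that the groups were alike. It was 1.11 without control replicate 3, which moved the fold by more than 1.5 times, and it was not called there either. Gpnmb had a log2 fold change of 0.45 (SE 0.28, 95% confidence interval -0.22 to 1.12, adjusted p = 0.39 from limma). For Cd68 the log2 fold change was -0.21 (SE 0.14, 95% confidence interval -0.55 to 0.14, adjusted p = 0.45 from limma).

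Surface proteins and heat-killed MJ2 were then compared directly, since they come from the same bacterium. Only Adgre1 among the 6 tested genes was called, higher with surface proteins, where 10.1% of the 10916 genes tested were called (5.08% higher and 4.97% lower). Its log2 difference was 2.07 (SE 0.22, 95% confidence interval 1.54 to 2.60, adjusted p = 0.0067 from limma), or 4.21-fold, and it stayed called under every alternative run, with 1.93 to 2.25 as each library was left out. Cd36 was also higher with surface proteins in every library, at a log2 difference of 0.76 (SE 0.19, 95% confidence interval 0.31 to 1.22, adjusted p = 0.039 from limma), which is 1.70-fold and under the 2-fold limit of a call. Without the 2-fold limit, 17.9% of all genes tested passed here.

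The other members did not pass in this comparison. For Msr1 the log2 difference was -0.03 (95% confidence interval -0.34 to 0.28, adjusted p = 0.89 from limma), an interval well inside a 2-fold change, and its sign turned without heat-killed MJ2 replicate 2 (0.0197) or surface proteins replicate 1 (0.0038). Cd68 had a log2 difference of -0.04 (95% confidence interval -0.34 to 0.26, adjusted p = 0.86 from limma). Gpnmb was lower in all 3 libraries with surface proteins, at -0.52 (95% confidence interval -0.91 to -0.14, adjusted p = 0.070 from limma). Lyz2 was also lower in all 3, at -0.31 (95% confidence interval -0.72 to 0.10, adjusted p = 0.24 from limma). Groups that do not overlap were counted for 4 of the 6 genes, against 42.3% of all genes tested. By level, then, Adgre1 rose from RANKL alone through heat-killed MJ2 to surface proteins, of which the first step did not pass the test, while for Msr1 and Lyz2 only the step from RANKL alone passed.

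Lyz2 and Lyz1 (chr10:117287797-117292868, minus strand) are neighbouring copies, and Lyz1 encodes lysozyme P of the gut's Paneth cells. The last 300 bases of their longest transcripts matched at 93.8% of positions (286 of 305), and 30 of the 226 stretches of 75 bases in the Lyz2 end (13.3%) also stood in Lyz1. Lyz1 had 964, 907 and 329 adjusted reads with RANKL alone, 3789, 4239 and 4112 with heat-killed MJ2, and 4701, 5449 and 5045 with surface proteins. Unlike Lyz2, Lyz1 was highest with surface proteins, at a log2 difference of 0.32 from heat-killed MJ2 that was not called (SE 0.13, adjusted p = 0.14 from limma).

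Summed over both copies, the lysozyme genes had 2482, 1971 and 749 adjusted reads with RANKL alone, 9739, 10227 and 10415 with heat-killed MJ2, and 10614, 10245 and 9195 with surface proteins. The treated groups overlapped, with a log2 difference of -0.02 between them (exact two-sided permutation p = 0.9). Against RANKL alone the sum was 6.49-fold higher with surface proteins and 6.57-fold higher with heat-killed MJ2, without overlap in either case (exact permutation p = 0.1 each, 0.2 after adjustment over 6 tests on the pair). Lyz2 made up 61.2%, 54.0% and 56.1% of the pair with RANKL alone, 61.1%, 58.5% and 60.5% with heat-killed MJ2, and 55.7%, 46.8% and 45.1% with surface proteins. The share was lower in every surface protein library than in every heat-killed MJ2 library, with a ratio of Lyz2 to Lyz1 that was 0.645 of that with heat-killed MJ2 (exact permutation p = 0.1, 0.2 after adjustment). A change in 1 of the genes and a change in how shared reads were assigned cannot be told apart here.

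**Figure D3:**
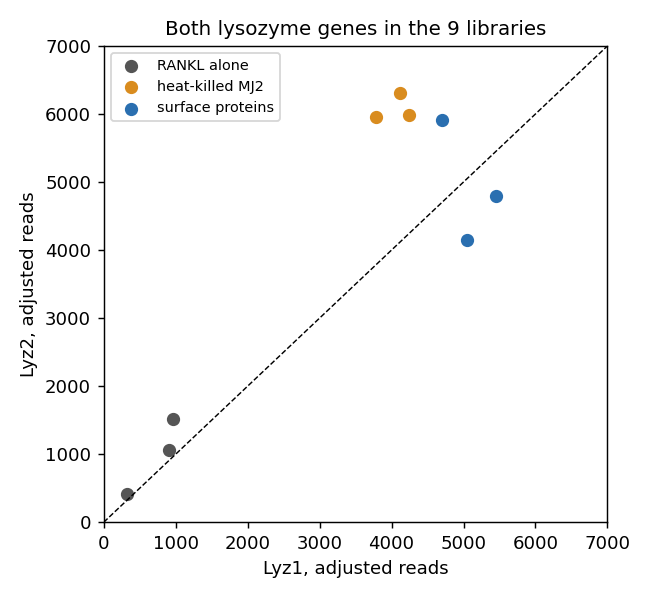
Adjusted reads of Lyz2 (vertical axis) against those of Lyz1 (horizontal axis) in each of the 9 libraries, coloured by group; the dashed line marks equal levels. The 3 libraries with RANKL alone sit near the origin, those with heat-killed MJ2 lie above the line, and those with surface proteins lie further right, 2 of them below the line.

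Other genes of the same functions were counted in lists, for which the medians and counts are descriptions. Of 15 further scavenger receptor genes, 10 were tested, and only Stab1, a receptor of macrophages and sinusoidal endothelium, was called. It was higher both with surface proteins (log2 fold change 1.43, adjusted p = 0.021 from limma) and with heat-killed MJ2 (1.79, adjusted p = 0.030). The call was lost for surface proteins without their replicate 1 (adjusted p = 0.056) or 3 (0.060), and for heat-killed MJ2 without any of its 3 libraries (0.086 to 0.108) or without control replicate 1 (0.058), and with the replicate block (0.084) or the filter of a mean of at least 1 read (0.055). The median log2 fold change of the list was 0.47 with surface proteins and 0.04 with heat-killed MJ2. Cd163, a receptor of tissue macrophages, and Stab2, another scavenger receptor of the list, had no read in any library. The 1 call among 10 genes in each comparison stands beside 17.5% of all genes called with surface proteins and 4.26% with heat-killed MJ2.

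Of 17 genes of apoptotic cell clearance, 12 were tested. With surface proteins Cd300lf, a phosphatidylserine receptor (log2 fold change 1.88), and Itgb5, the integrin chain that works with MFG-E8 (1.45), rose, and the transglutaminase Tgm2 fell by 1.60 on the log2 scale. With heat-killed MJ2 Cd300lf rose (1.85) and Tgm2 fell (-1.12), and no other was called. These 3 and 2 calls among 12 genes stand beside 17.5% and 4.26% of all genes called. Both of these calls were lost without any 1 of the 3 heat-killed MJ2 libraries (adjusted p = 0.101 to 0.126 from limma) and without control replicate 3, Cd300lf also without control replicate 1 and Tgm2 without replicate 2. The replicate block and the filter of a mean of at least 1 read ended both calls too (adjusted p = 0.065 to 0.093). With surface proteins all 3 genes stayed called in every such fit. Pros1, which encodes the TAM ligand protein S, had 30.0, 2.27 and 3.94 adjusted reads with RANKL alone and 29.7 to 81.8 in the treated libraries, and it was not called (adjusted p = 0.056 with surface proteins and 0.12 with heat-killed MJ2, from limma). Gas6, the other TAM ligand, was not called either (log2 fold change -0.58 and -0.27). The median log2 fold change of the list was -0.23 with surface proteins and -0.26 with heat-killed MJ2. Without Pros1, which passed the filter only through the treated libraries, it was -0.45 and -0.27.

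Transcription factors known to set macrophage genes differed in both directions with surface proteins, where 5 of 14 tested were called higher and 2 lower (10.2% and 7.32% of all genes), with a median log2 fold change of 0.28. Without Maf, which passed the filter only through the surface protein libraries, 4 of 13 were called higher and the median was 0.20. With heat-killed MJ2 1 of 13 was called, higher (3.37% of all genes), and the median was -0.14. Maf had at most 0.86 adjusted reads with RANKL alone and 31.4, 53.0 and 44.6 with surface proteins. Irf8, which restrains osteoclast differentiation, rose by a log2 fold change of 2.83 with surface proteins. Mitf and Tfeb, which drive lysosomal and osteoclast genes, fell by 1.23 and 1.62 on the log2 scale with surface proteins, where Tfeb lost its call without surface proteins replicate 2 (adjusted p = 0.055 from limma). With heat-killed MJ2, Irf8, Mitf and Tfeb moved the same way without overlap with the control (log2 fold change 1.83, -0.93 and -1.17). None of them was called there, Mitf only because it stayed under the 2-fold limit (adjusted p = 0.017 from limma). The gene of PU.1, Spi1, was not called under either treatment (-0.41 and -0.37).

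Macrophage surface and lysosomal markers outside the 10 genes were counted last. With surface proteins 7 of 14 tested were called higher and 3 lower, beside 10.2% and 7.32% of all genes (median log2 fold change 1.09). With heat-killed MJ2 5 were called, all higher, beside 3.37% of all genes (median 0.69). Fcgr1 and Siglec1 passed the filter only through the treated libraries, and without them 5 of 12 were called higher and 3 lower with surface proteins (median 0.84) and 3 of 12 higher with heat-killed MJ2 (median 0.31). The integrin chain Itgam (CD11b) had log2 fold changes of 3.01 with surface proteins and 2.26 with heat-killed MJ2 and stayed called under every alternative run. The high-affinity Fc receptor Fcgr1 had 33.7, 3.35 and 2.95 adjusted reads with RANKL alone, 111 to 208 with heat-killed MJ2 and 828 to 986 with surface proteins. Its log2 fold changes of 6.71 with surface proteins and 4.04 with heat-killed MJ2 became 7.73 and 5.06 without control replicate 1, and the call with heat-killed MJ2 was lost without any 1 of the other 5 libraries (adjusted p = 0.12 to 0.14 from limma). It was also lost under quantile normalization (0.051), a pseudocount of 0.1 (0.065), the filter of a mean of at least 1 read (0.087) and the replicate block (0.104). The sialic acid receptor Siglec1 had 0, 4.43 and 2.95 adjusted reads with RANKL alone, 58.8 to 112 with heat-killed MJ2 and 80.1 to 154 with surface proteins. Its log2 fold changes of 5.33 with surface proteins and 4.75 with heat-killed MJ2, taken over a control at the floor, became 4.59 and 4.01 without control replicate 1. They depended on the constant added before the log, at 6.63 and 6.05 with 0.1 and 3.29 and 2.77 with 10, and the call with heat-killed MJ2 was lost with 0.1 (adjusted p = 0.078 from limma). The genes called lower with surface proteins were Apoe (-2.09), the fractalkine receptor Cx3cr1 (-2.02) and Csf1r (-1.47), the receptor through which macrophages survive. With heat-killed MJ2, Apoe (-1.91, adjusted p = 0.069 from limma) and Csf1r (-0.62, 0.052) were also lower without overlap but were not called. Cx3cr1 went the other way there (0.59) and was not called. The call of Cx3cr1 held without control replicate 3 and was lost without any 1 of the other 5 libraries (adjusted p = 0.059 to 0.108 from limma), as well as under the replicate block, the filter of a mean of at least 1 read, a pseudocount of 0.1 and the trended robust fit (0.0505 to 0.0693). The macrophage genes thus did not all move 1 way: Adgre1 and Itgam rose with surface proteins while Csf1r fell.

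**Figure D4:**
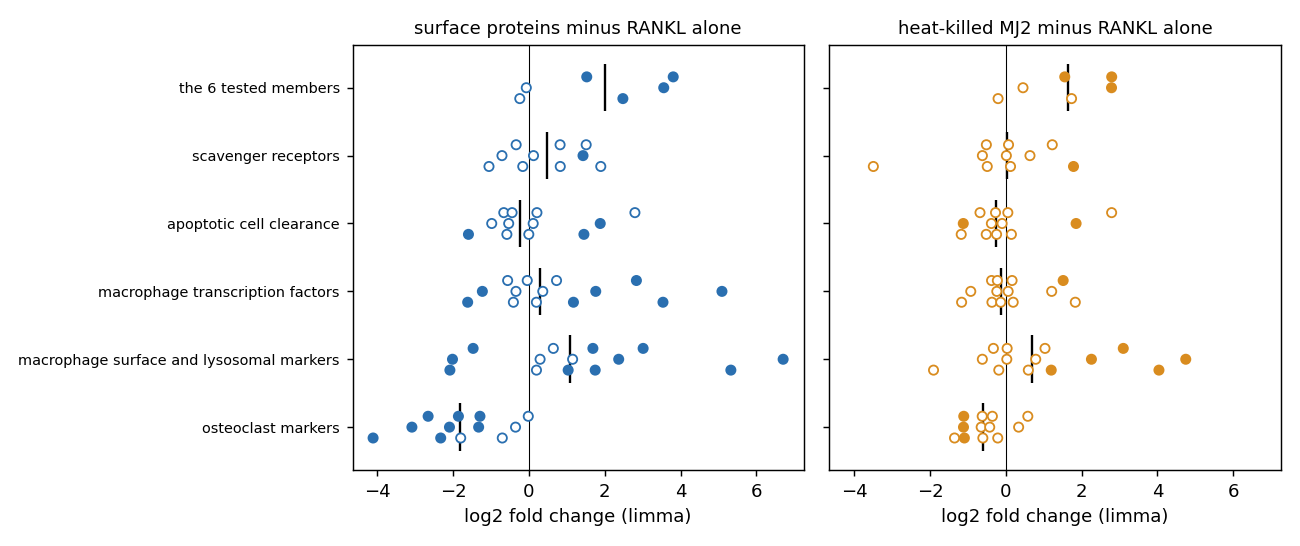
Log2 fold change (horizontal axis) of each tested gene in 6 groups of genes, for surface proteins (left) and heat-killed MJ2 (right) against RANKL alone; filled points were called, open points were not, and vertical bars mark medians. The 6 tested genes and the surface and lysosomal markers lie mostly to the right, scavenger receptors and clearance genes lie around 0, and osteoclast markers lie mostly to the left, with a median of -1.83 for surface proteins and -0.62 for heat-killed MJ2.

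Markers of alternative activation and of other cell types were mostly at the floor. Of 11 genes of alternative activation, to which Mrc1 is usually counted, 3 were tested with surface proteins, and Clec10a (log2 fold change 1.79) and Il4ra (1.39) rose, where 10.2% of all genes were called higher. Of the 3 tested, 2 passed the filter only through the surface protein libraries, Clec10a among them, which leaves only Il4ra. Clec10a lost its call without control replicate 1 (adjusted p = 0.060 from limma), surface proteins replicate 2 (0.066) or replicate 3 (0.060). None of the 4 tested with heat-killed MJ2 was called by limma (4.26% of all genes), and 1 was past 2-fold when p under 0.05 was taken without adjustment. Of these 4, 3 passed the filter only through the heat-killed MJ2 libraries. Of 22 markers of other cell types, 21 had a row and 8 were at 0 in all 9 libraries. They summed to 23.8 to 55.7 adjusted reads with RANKL alone, 1922 to 2084 with heat-killed MJ2 and 152 to 264 with surface proteins. With heat-killed MJ2 nearly all of these were S100a8, a calcium-binding protein of neutrophils that activated macrophages also make, at 1899, 2056 and 1906 adjusted reads with heat-killed MJ2 and 198, 209 and 113 with surface proteins, against at most 0.11 with RANKL alone. Dcn, a matrix proteoglycan of fibroblasts, had at most 0.057 adjusted reads with RANKL alone, 3.09, 7.75 and 0 with heat-killed MJ2, and 13.7, 23.2 and 9.81 with surface proteins. The collagen genes Col1a1 and Col1a2, also of fibroblasts, did not follow it: Col1a1 had 0.86, 37.5 and 14.8 adjusted reads with RANKL alone and 1.93, 16.3 and 20.8 with surface proteins (log2 fold change -0.01, not called), and Col1a2 did not exceed 4.21 in any library. The part of these genes in the members' results was not tested. The S100a8 partner S100a9 did not exceed 1.01, and T cell and B cell markers (Cd3e, Ms4a1) and the neutrophil protease Elane were at 0.

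The genes whose pattern over the 9 libraries was most like that of a member were found by the root mean square difference of log2 values after the mean of each gene was removed, over the 11193 genes that reached 10 adjusted reads in 3 or more libraries. Near to Adgre1 were Ms4a6c (0.345) and Nfkbiz (0.419). Lrrc17 (0.082), Akap5 (0.084) and Lpp (0.149) were nearest to Msr1. For Cd36 they were the metallothionein gene Mt2 (0.186), Itgam (0.323) and the protease gene Ctsl (0.327). For Lyz2 they were Cybb (0.239), Lyz1 (0.328) and Abtb2 (0.348). The distances are on the log2 scale. The genes near Msr1 and Cd36 followed them more closely than any gene followed Adgre1. The control libraries of Adgre1 were spread by a standard deviation of 1.08 on that scale and those of Lyz2 by 0.956. The part of this spread in the distances was not tested.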

How the data were processed

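RNA of RAW264.7 cells was sequenced in 9 libraries of 3′ mRNA ends, 3 per group, grouped by the sample labels. The authors deposited log2 values, 1 per gene and library. The methods name quantile normalization between samples, but the sorted columns differ between libraries, so the exact scaling is not known. The labels name Bowtie2, bedtools and mm10, without versions. How reads shared between genes were counted is not given in the sources used here.

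Adjusted reads are 2 to the deposited value, minus 1. Near 1 read, the median value was 0.924 to 1.11, and 91.6% to 100.0% of low values lay within 0.2 of a whole step. Replicates differed by more than counting noise. Each comparison was fitted with limma 3.58.1 in R 4.3.3 to its 6 libraries, as the log2 unit requires, for genes that reached 10 adjusted reads in 3 or more of them. Fold changes are on the log2(adjusted reads + 1) scale. Tested on simulated data for surface proteins against RANKL alone, over 10970 genes, the fit called 200 of 200 changed and 10 of 10770 unchanged genes. How often the fit misses a gene at the spread of the real libraries was not tested. Same-numbered libraries deviated together only weakly, so replicate numbers were not used as pairs.

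The members and the gene lists were chosen with earlier results of these data known. All 10 members are named. From each list, at most 3 called genes per direction are named, plus the paralogs Lyz1 and Tyro3 and, for tested members whose group means span at least 1 on the log2 scale (Mrc1 and Axl, at the floor, were left out), the 3 genes of most similar pattern. Genes given as not called, not tested or at 0 (Pros1, Gas6, Spi1, Cd163, Stab2, Vsig4, S100a9, Dcn, Col1a1, Col1a2, Cd3e, Ms4a1 and Elane) were added after their values were seen. The values of 1 gene that this rule names are not reported here. Positions are from GENCODE M21 (GRCm38). Alternatives were other scalings, filters, constants before the log, thresholds, a fit to all 9 libraries, a replicate block, a trended robust fit and leaving out each library. Summing Lyz1 with Lyz2, counting the lists under the alternatives and without genes that passed the filter through 1 group, and following the named list genes and Axl through them were chosen after seeing the data. Python 3.11.15, numpy 2.4.6, pandas 2.3.3, scipy 1.17.1, Biopython 1.88 and matplotlib 3.10.9 were used.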

Additional observations from a re-analysis of the deposited data

How the results depend on the processing

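Of the 18 member fold changes (6 genes in 3 comparisons), 14 kept their direction and their side of the threshold under every alternative fit. These fits leave out the alternatives that changed the threshold itself. In all, 296 of 306 recomputed values were kept. The other fold changes were those of Lyz2 and Adgre1 with heat-killed MJ2, and of Gpnmb and Msr1 where the difference lay near 0. Under changed thresholds, Adgre1 with heat-killed MJ2 passed at an unadjusted p (0.015 from limma), and Cd36 between the treatments passed with any fold. For heat-killed MJ2 against RANKL alone, Lyz2 lost its call under the replicate block (log2 fold change 2.79, adjusted p = 0.064 from limma) and ranged from 2.26 to 3.18 as each library was left out, and Adgre1 was called under the trended robust fit (1.73, adjusted p = 0.047). Gpnmb with surface proteins turned to 0.085 and 0.0645 without control replicates 2 and 3 (range -0.36 to 0.085), and Msr1 between the treatments to 0.0197 and 0.0038 without heat-killed MJ2 replicate 2 and surface proteins replicate 1 (range -0.081 to 0.0197). The cause was not tested. The replicate block changed no other member call. Deviations of same-numbered libraries correlated at 0.0179 to 0.106 and those of differently numbered ones at -0.0755 to 0.0311. Each library correlated best with its own number, a hint from the data that the labels do not state, and the numbers were not used as pairs.

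Over all genes, calls for surface proteins against RANKL alone were 1902, and 3163 at an adjusted p under 0.05 with any fold. For heat-killed MJ2 they were 461, 289 with the replicate block and 799 at an unadjusted p, and between the treatments 1098, and 1949 with any fold. Leaving out a library gave 1357 to 1822, 81 to 347 and 362 to 1176; the lowest counts were without surface proteins replicate 2 in the first and without heat-killed MJ2 replicate 1 in the others. Members called between the treatments rose to 2 with any fold, as Cd36 passed.

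List counts against RANKL alone also moved. For surface proteins, scavenger receptors (1) gave 2 with the trended robust fit and at an unadjusted p and 3 with any fold, clearance genes (3) gave 5 with any fold, alternative activation (2) gave 1 with 10 reads required in every library, and other cell types (1) gave 0 there and 2 with a mean of at least 1 read. Left-out libraries gave 0 to 2, 3 to 5, 1 to 3 and 0 to 1 for these, 5 to 7 for transcription factors, 7 to 10 for surface markers and 7 to 9 for osteoclast markers. For heat-killed MJ2, requiring a mean of 1 read gave 0 for scavenger receptors (1), clearance (2) and transcription factors (1), 3 for surface markers (5) and 1 for osteoclast markers (3). Requiring 10 reads in every library gave 0 for other cell types (1). A pseudocount of 0.1 gave 0 transcription factors and 3 surface markers. The fit to all 9 libraries gave 2 scavenger receptors, 2 transcription factors and 0 osteoclast markers. The replicate block gave 0, 0 and 1 for scavenger receptors, clearance and osteoclast markers. The trended robust fit gave 2, 4 and 2, and an unadjusted p 2, 4 and 4, for scavenger receptors, clearance and transcription factors, with 1 for alternative activation (0); any fold gave 2 transcription factors. Left-out libraries gave 0 to 1, 0 to 2, 0 to 2, 1 to 4, 0 to 1, 0 to 2 and 0 to 1 for scavenger receptors, clearance, transcription factors, surface markers, alternative activation, osteoclast markers and other cell types. Other scalings moved the median of all genes by less than 0.1 on the log2 scale. With the filter of a mean of at least 1 read, Axl also passed the threshold with heat-killed MJ2. It sets a few control reads against libraries at or near 0 there and is not counted as a member called.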
